A study of Drosophila melanogaster with 3 samples.

Results

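The 7 genes described here encode pore-forming subunits of ion channels in Drosophila melanogaster: the inward rectifiers Irk2 and Irk3, the calcium-activated potassium channel SK, the K2P channel Task7, the HCN channel Ih (hyperpolarisation-activated and cyclic nucleotide-gated), NaCP60E of the sodium channel family and the TRP channel gene pain. They were taken because they had at least 1 isoform model in an assembly of full-length reads, so that being in the assembly is how they were chosen and not a result. All exon entries whose gene or transcript identifier held the FlyBase identifier of a member were used, which gave 12 models with 84 exons, out of 5980 models of 4696 genes in all. The RNA came from heads of 3-day-old flies of the laboratory strain w1118, untreated, in 3 samples of 1 group, each prepared from 4 µg of total RNA. In FLAM-seq, poly(A)-selected RNA receives an added tail, is copied into cDNA including its own poly(A) tail, and is read end to end on a PacBio instrument. The authors merged the reads of the 3 samples before they built the models, so the assembly gives exon coordinates and holds no level, no read number and no value for any single sample. Nothing could therefore be tested over samples, and the numbers below are counts and lengths set beside the same measure over all models or over the annotation. Whole heads hold brain, eyes, fat body, muscle and cuticle, and a model does not tell which of these cells its reads came from. Of 8 marker genes of head neurons, photoreceptors and glia, 4 had a model (ninaE, Arr2 and nSyb 1 each, Gs2 8), while norpA, elav, brp and repo had none. None of 6 germline genes of ovary and testis (vas, nos, osk, bam, aub and bol) had a model. Over all protein-coding genes, 33.4% had one. A list of 6 genes does not speak for other genes of the germline. It leaves out betaTub85D, a neighbour of Task7 named below, which had a model.

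Ion channels are membrane proteins that let selected ions through a gated pore. Inward rectifiers and K2P channels set the resting potential, SK channels open when intracellular calcium rises and end bursts of firing, and HCN channels such as Ih open on hyperpolarisation and pace rhythmic activity. In potassium channels the pore carries a short selectivity filter that in most of them reads glycine, tyrosine or phenylalanine, glycine. Channel genes of flies are known for extensive alternative splicing and, in several cases, for genes that stretch over long introns.

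All 12 models were spliced, lay on the strand of their gene and were longer than the median model of the assembly. Their lengths ran from 1773 to 3040 nt with a median of 2097.5 nt, against a median of 1487 nt over all models (66 to 6768 nt). They held 4 to 13 exons with a median of 6, against a median of 3 over all models, of which 852 had a single exon. Irk2 had 3 models, Irk3, Ih and NaCP60E 2 each, and SK, Task7 and pain 1 each, so 4 of 7 genes had several models, where 14.9% of all genes did. Each of the 7 genes had a single transcription start site (TSS; 5′ ends more than 50 nt apart count as distinct) and a single 3′ end (more than 150 nt apart). Over all genes, 4.58% had several TSSs and 4.2% several 3′ ends, but a gene with 1 model can have only 1 of each. Among the 698 genes with several models, 366 had a single TSS and a single 3′ end. The 4 genes with several models here all did, and their models thus differed by splicing alone at these windows.

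**Figure D1:**
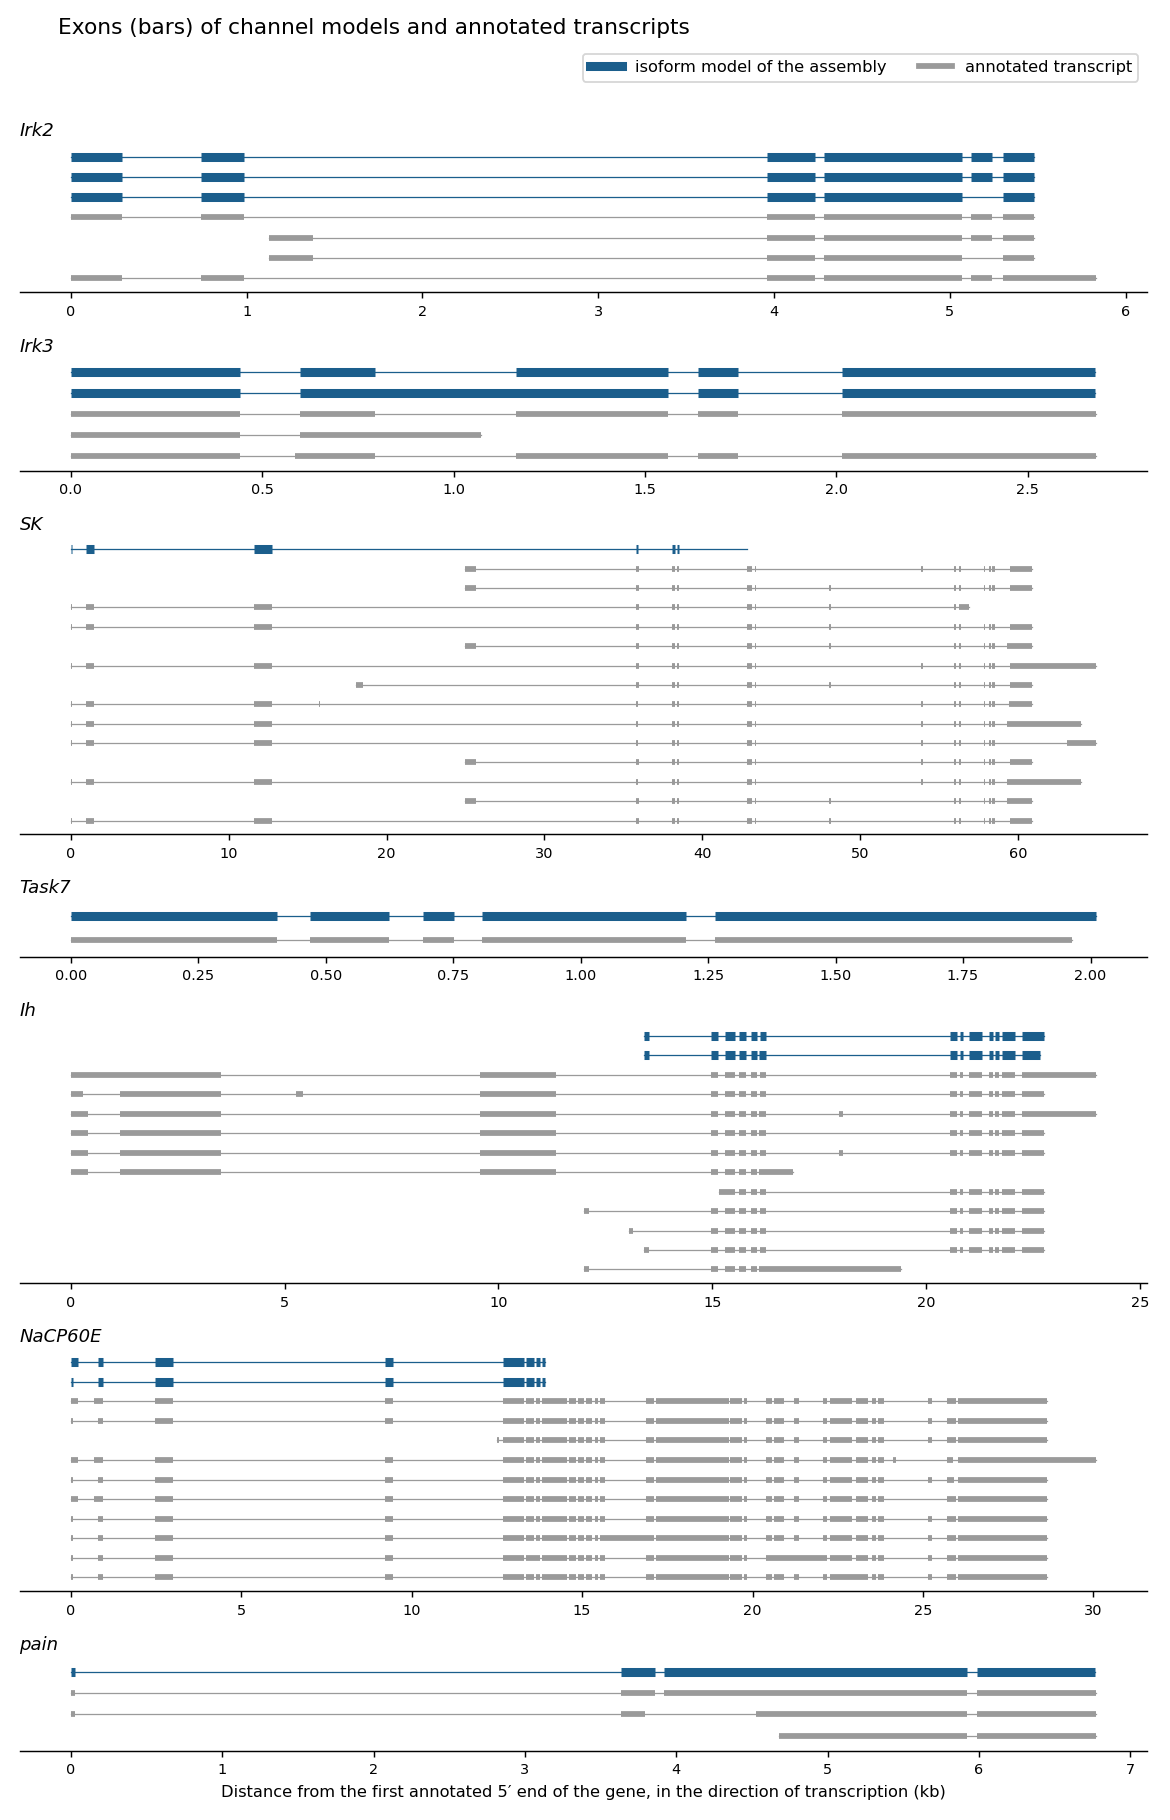
Exons (bars) and introns (lines) of the 12 isoform models (blue, top rows of each panel) above the annotated transcripts (grey), drawn in kb from the first annotated 5′ end in the direction of transcription, 1 panel and 1 scale per gene. The models of Irk2, Irk3, Task7 and pain run along nearly the whole gene, those of Ih begin 13410 nt into it, and those of SK and NaCP60E end 14045 and 14739 nt before the nearest annotated 3′ end.

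Irk2 encodes an inward rectifier potassium channel subunit of the Kir family. The gene (FBgn0039081, minus strand of chromosome arm 3R, 23513617 to 23519445, dm6) has 4 annotated transcripts from 2 TSSs. Its 3 models were 1896, 1893 and 1778 nt long, with 6, 6 and 5 exons. All began at 23519445, the upstream TSS, which 2 of the 4 annotated transcripts use, and all ended at 23513969, 352 nt before the last annotated 3′ end. No model began at the downstream TSS. The 1896-nt and 1893-nt models carried the splice chains of annotated transcripts and differed by 3 nt at the acceptor of exon 5, with introns of 50 and 53 nt. Their reading frames held 454 and 453 codons and differed by 1 codon, after the 435th, with the last 18 codons shared. The genome sequence across both acceptors is shown here because it holds 2 AG dinucleotides 1 base apart (the final AG of each intron in capitals, 23514315 to 23514344).
Irk2 acceptors: tcattgttatttgtctAGcAGaaaccacct
The 1778-nt model skipped exon 5, which is 115 nt long from the second acceptor and 118 nt from the first, neither a multiple of 3. All 4 of its introns were annotated, but no annotated transcript holds them together, since the intron that spans the skipped exon (23514146 to 23514376, 231 nt) is annotated once, in a transcript of the downstream TSS. Relative to the 1893-nt model the frame kept the first 435 codons, which include the filter motif at codon 204, and then read 32 other codons in place of 18. It gave 467 codons and a 3′ UTR of 79 nt, against 236 nt in both of the other models. The longest annotated Irk2 protein has 454 codons. From the downstream TSS, the annotated proteins have 451 codons with the skipping intron and 437 with exon 5.

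Irk3 encodes another Kir subunit. The gene (FBgn0032706, minus strand of 2L, 18711071 to 18713748) is short, spanning 2678 nt, with 3 annotated transcripts that share 1 TSS. Its models were 1807 nt (5 exons) and 2174 nt (4 exons) long, with the same 5′ end at 18713748 and the same 3′ end at 18711072. The 1807-nt model had an annotated splice chain and a frame of 442 codons with the filter motif at codon 219. In the 2174-nt model intron 2 (18712585 to 18712951, 367 nt) was retained. Its frame shared the first 143 codons, read 62 more and met a stop codon that ended 189 nt into the intron, for 205 codons in all, before the filter motif. An annotated transcript has the same start and also a protein of 205 codons, but ends inside this intron, at base 276 of it. The model ran through the intron to the end of the gene, with its 3 other introns spliced. The 3′ UTR after this stop was 1343 nt long, against 265 nt in the spliced model. The intron has the usual GT and AG at its ends, and the sequences at its borders and at the in-frame stop are given to show where the frames part (GT, AG and the stop codon in capitals; exon bases are the first 10 at the donor and the last 10 at the acceptor). They lie at 18712932 to 18712961 (donor), 18712575 to 18712604 (acceptor) and 18712751 to 18712780 (stop).
Irk3 donor: caccacgctgGTaagatcctggttcggaca
Irk3 acceptor: gtttctttccaatcgcgcAGatggaactgg
Irk3 stop in the intron: gtcacgttcagcataTAGtttgtagtacat

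SK encodes the small-conductance calcium-activated potassium channel, which calmodulin opens when calcium binds. It is the longest gene of the 7 (FBgn0029761, plus strand of X, 5340236 to 5405138, 64903 nt) and has 14 annotated transcripts of 3484 to 8828 nt with 11 to 16 exons. Its single model had 7 exons and 2242 nt, shorter than every annotated transcript. The model began at 5340237, at the first of 3 annotated TSSs, which 8 of the 14 transcripts use. It crossed introns of up to 23043 nt (5353005 to 5376047), a length that 99.6% of all introns of the assembly fell short of. The model ended at 5383073, 11 nt into an exon that all 14 annotated transcripts hold, within coding sequence, 306 nt before the nearest annotated end of that exon and 14045 nt before the nearest annotated 3′ end of the gene. From the annotated start at 5351829 the frame ran through 546 codons to the end of the model and met no stop codon. The 8 annotated proteins with this start have 812 to 1174 codons and carry the filter motif from codon 710 on, downstream of where the model stops. The model is therefore not a full-length SK mRNA by the annotation, although it has a full 5′ part. All 6 introns were annotated, with intron 4 in 4 and intron 6 in 8 of the 14 transcripts, but none of the 14 holds both. The last exon is shown with the bases before it (last exon in capitals, 5383044 to 5383073) and with the genome that follows (5383074 to 5383103), which has 4 A in its first 10 bases.
SK last exon: tcgaaatcgaaaaccgtagTTATTCATGAT
SK after the model: agataactgcgctgacgattggaggatcgc

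Task7 encodes a K2P channel, whose subunits carry a pair of pore domains each and give a potassium leak current. The gene (FBgn0037690, minus strand of 3R, 9410329 to 9412293, 1965 nt) has 1 annotated transcript of 1727 nt. Its model had the same splice chain of 5 exons, began at the annotated 5′ end and was 1773 nt long, since its 3′ end at 9410283 lay 46 nt past the annotated one. The frame held all 340 annotated codons, with filter motifs at codons 96 and 202 and a 3′ UTR of 474 nt. The 3′ end lay 1 nt from the 5′ end, at 9410282, of a model of the next gene on the same strand, betaTub85D. The last 30 nt of the Task7 model and the next 30 nt of genome are given because neither holds AATAAA or ATTAAA (9410283 to 9410312, then 9410253 to 9410282).
Task7 end: aaatcggggtgtgtgaaatgtgtcgaagtc
Task7 after the model: ggaaatcgtagtagcctatttgtgaacatt
The ends of Irk2 (23513969 to 23513998) and Irk3 (18711092 to 18711121, a stretch that ends 20 nt before the last base) did hold such a hexamer, shown in capitals.
Irk2 end: taagttAATAAAcgctttagtcagagacta
Irk3 end: aataacAATAAATTAAAtacaataataaca
In Irk2, AATAAA began 24 nt from the last base. In Irk3, AATAAA began 44 nt from it and overlapped an ATTAAA by 1 base.

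Ih encodes the only HCN channel of the fly, opened by hyperpolarisation and modulated by cyclic nucleotides. The gene (FBgn0263397, plus strand of 2R, 14276130 to 14300095, 23966 nt) has 11 annotated transcripts from 5 TSSs, 2383 to 8900 nt long. Both models, of 2525 and 2429 nt, had 13 exons, more than 99.3% of all models held. They began at 14289540, at TSS 4 of 5 in the direction of transcription and 13410 nt into the gene, which 1 annotated transcript uses. The 2525-nt model had the splice chain of that transcript and the frame of 618 codons. The 2429-nt model used an acceptor 15 nt upstream for exon 6 (14292229 to 14292243), with an intron of 46 instead of 61 nt. This added 5 codons after the 181st, gave 623 codons, and left the 437 codons that follow, filter motif included, as they were. The acceptor is annotated in 4 of the 11 transcripts, none of them with all of the other 11 introns of this model. However, 1 of them, from an upstream TSS, holds every intron of the model but the first. The models ended at 14298895 and 14298784, 111 nt apart, which count as 1 end at the 150-nt window and as 2 ends at windows of 50 and 20 nt. Proteins of up to 1327 codons are annotated for Ih, and the upstream exons they need were in no model.

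NaCP60E belongs to the voltage-gated sodium channel family and is a paralogue of para, the sodium channel of the fly action potential. The gene (FBgn0085434, plus strand of 2R, 24891614 to 24921677, 30064 nt) has 10 annotated transcripts, of 10469 to 12929 nt with 24 to 29 exons. Its models had 8 exons each and were 2170 and 2025 nt long, far below the annotated lengths. They shared their 5′ end (24891615, the first of 2 annotated TSSs, used by 9 of the 10 transcripts) and their 3′ end (24905526), and differed in the donor of the first exon, which was 223 nt long in the 2170-nt model and 78 nt in the 2025-nt model. The 145 nt between the donors lie in the 5′ UTR, which was 856 nt in the 2170-nt and 711 nt in the 2025-nt model, and the frames were the same. The longer first exon's junction, 24891838 to 24892401, was the only intron of the 45 distinct introns of the 7 genes that is not annotated. The 2025-nt model's 7 introns occur together in 5 annotated transcripts. Both frames ran through 438 codons from the annotated start at 24894570 to the end of the model without a stop, where 9 annotated proteins with this start have 366 to 2896 codons. The 3′ end lay 90 nt into a coding exon, 14739 nt before the nearest annotated 3′ end, and was followed by 9 A in the next 10 bases of the genome. As for SK, the models hold the 5′ part of the mRNA and no annotated full-length isoform. A model of RpL41, a ribosomal protein gene on the opposite strand, lay wholly inside an intron of these models.

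The TRP channel gene pain, named for the nociception defect of its mutants, encodes a channel that larvae need to respond to noxious heat. The gene (FBgn0060296, minus strand of 2R, 24921505 to 24928275, 6771 nt) has 3 annotated transcripts. Its model, of 3040 nt and 4 exons, was the longest of the 12 and longer than 94.2% of all models. It had an annotated splice chain and the longest annotated frame, of 913 codons, with a 5′ UTR of 40 nt and a 3′ UTR of 258 nt. It began at the first of 2 annotated TSSs, upstream of an intron of 3603 nt. In the annotation the ends of pain and NaCP60E, which lie on opposite strands, overlap by 173 nt. In the models they were 15980 nt apart.

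**Figure D2:**
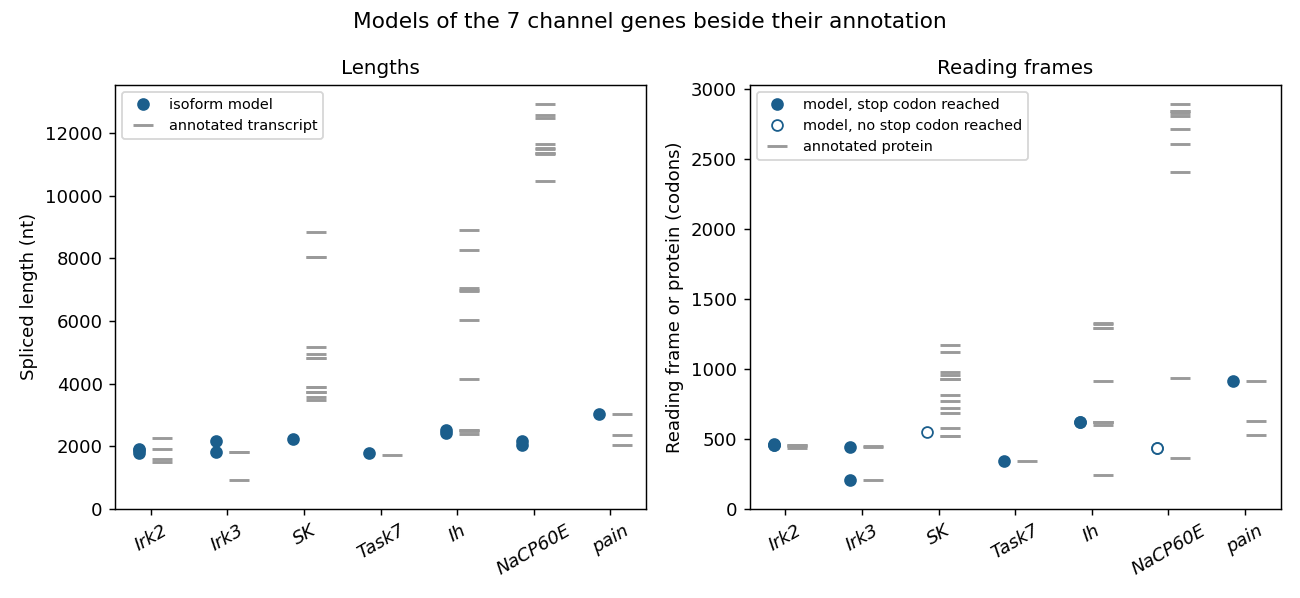
Left, spliced length in nt of each isoform model (blue points, left) and each annotated transcript (grey dashes, right) of the 7 genes. Right, codons from the first annotated start in each model (filled where a stop codon was reached, open where it was not) and codons of each annotated protein. The open points are the SK model, at 546 codons, and both NaCP60E models, at 438 codons.

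Set against the annotation, the models fell into those whose frame reached a stop codon and those whose frame did not. The first kind includes the retained-intron model of Irk3, whose stop lay inside the intron, at 205 codons against 442 in the spliced model. In 9 of the 12 the frame from the first annotated start reached a stop codon, where this was so for 99.1% of 5676 models with such a start in the whole assembly. The 3 others, of SK and NaCP60E, were also the only member models at least 100 nt shorter than every annotated transcript of their gene, as 4.37% of all models were. An annotated splice chain, with every intron equal to those of a single transcript, was found in 6 of the 12 (2 of Irk2 and 1 each of Irk3, Task7, Ih and pain), against 86.4% of the spliced models of annotated genes. Of the other 6, 5 used only annotated introns, as did 88.4% of such models in the assembly. For the retained-intron model of Irk3 and the 2025-nt model of NaCP60E these introns occur together in an annotated transcript that holds more introns besides, and for the models of Irk2, SK and Ih they do not. In all, 44 of the 45 introns were annotated, and 44 of the 45 began with GT and ended with AG. The exception to GT was the second intron of both Ih models, which began with GC. Neither count was made over all genes, and the authors had corrected splice junctions with short reads, so neither is particular to the 7 genes. Introns over 2000 nt made up 20% of those of the 7 genes and 8.90% of the 12973 introns of the assembly.

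The differences between models of 1 gene came to 5 in 4 genes. They were a skipped exon (Irk2), a retained intron (Irk3), alternative acceptors (Irk2, 3 nt, and Ih, 15 nt) and an alternative donor (NaCP60E, 145 nt). Both acceptor differences were whole codons and left the frame intact on either side, and the donor difference was untranslated. The skipped exon of Irk2 changed the C-terminal end of the frame. The retained intron of Irk3 kept the first 143 codons and put 62 others in place of the 299 that follow, filter motif included. Among the 698 genes of the assembly with several models, 47.9% held a retained intron, 22.9% an alternative donor, 18.8% an alternative acceptor and 15.6% a skipped exon. With 4 genes no share of the channel genes can be told from these.

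The 5′ ends of all 12 models lay within 1 nt of an annotated 5′ end, as did 91.6% of those of all models. The 3′ ends of 7 of the 12 models (3 of Irk2, 2 of Irk3, 1 of Ih and the model of pain) did so for an annotated 3′ end, against 74.5% of all models. The match was exact in a way that depends on the side. The lower genome coordinate was 1 nt above an annotated one in 11 of the 12 member models and 79.4% of all models, and the higher coordinate equalled an annotated one in 8 of the 12 and 83.4% of all models. Closeness to an annotated end is therefore not an independent measure of these ends, and the sources used here do not say how the ends came to coincide. Within 150 nt of an annotated 3′ end lay 5 of the 7 ends of the members and 90.9% of all ends, the exceptions being SK and NaCP60E.

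A poly(A) signal was looked for on the sense strand in the last 50 nt. AATAAA or ATTAAA was found at 2 of the 7 ends, Irk2 and Irk3, and at 66% of the 4918 ends of the assembly. Then 10 variants of AATAAA were added. Those with another first base were TATAAA, besides GATAAA, besides CATAAA. Those with another second base were AGTAAA, besides ACTAAA. The third base differed in AAGAAA, the fourth in AATGAA, and the fifth in AATATA, likewise in AATACA, likewise in AATAGA. With all 12 hexamers, 5 of the 7 ends held one, against 86.8% of all ends, the additions being AATATA 35 nt from the end of the 2525-nt Ih model, ACTAAA 13 nt from that of NaCP60E and AGTAAA 23 nt from that of pain. At SK and Task7 none of the 12 was present. The end of the 2429-nt Ih model, which its longer neighbour stood for in these counts, had ATTAAA 25 nt upstream. Runs of A in the genome just past an end, known as a source of false 3′ ends in primed cDNA, were counted too, as 7 or more A in the next 10 bases. They followed 2 of the 7 ends, NaCP60E with 9 A and the distal Ih end with 10 A, against 10.4% of all ends, and the other Ih end had 7 A. The ends of SK, Irk2 and Task7 had 4 A each, that of pain 3 and that of Irk3 1. FLAM-seq was among the methods the authors chose to avoid false ends of this kind, as it detects the poly(A) tail itself. The part of such priming in any end was not tested.

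The genes fell into 4 short and 3 long ones, taking a span of 10000 nt in the annotation as the limit. The long genes (Ih, NaCP60E and SK, 23966 to 64903 nt) had 5 models with 7 to 13 exons and a median of 2242 nt. The short genes (Irk2, Irk3, Task7 and pain, 1965 to 6771 nt) had 7 models with 4 to 6 exons and a median of 1893 nt. Model length thus differed little between them (2025 to 2525 nt in long and 1773 to 3040 nt in short genes), while the annotated genes differed in span by an order of magnitude. What differed was how much of the gene the models held. Models of long genes covered 39.0% to 66.0% of the annotated span, those of short genes 94.0% to 102% of it. Of the annotated introns, 26 of 85 (30.6%) of the long genes were in a model, and 18 of 21 (85.7%) of the short genes. The long genes had 10 to 14 annotated transcripts each and the short ones 1 to 4, so the long genes had more annotated forms to cover. The 39.0% is that of Ih, whose 2525-nt model had the splice chain of a whole annotated transcript from an internal TSS. A stop codon ended the frame in 2 of the 5 models of long genes, both of Ih, and in all 7 models of short genes. With 3 and 4 genes chosen on having a model, none of these differences was tested.

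**Figure D3:**
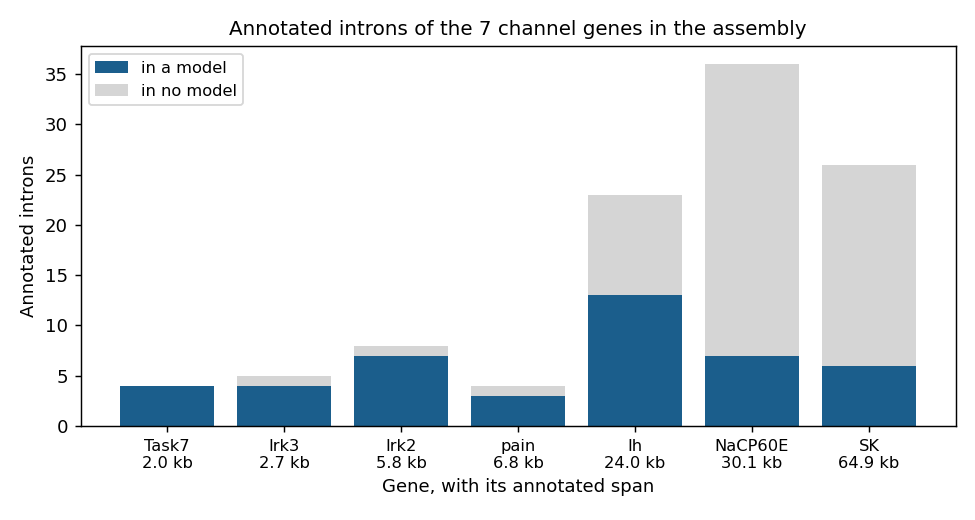
Number of annotated introns of each gene that were in a model (blue) and in no model (grey), with the genes ordered by annotated span in kb. The 4 genes under 10 kb missed 0 or 1 intron each, and the 3 longer genes missed 10 to 29.

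Beside these 7, a list of 93 channel genes in 14 classes held 13 other genes with a model. In all 20 of 93 had a model, but the 7 were on the list because they had one. Of the 86 other genes 13 had a model, against 33.4% of 13945 protein-coding genes. Models were found for 4 of 10 nicotinic acetylcholine receptor subunits (nAChRalpha2, nAChRalpha7, nAChRbeta1 and nAChRbeta2), which open to the excitatory transmitter of the fly brain, and for 3 of 8 chloride channels gated by transmitters or pH (the GABA receptor subunits Rdl and Lcch3, and pHCl-2). A model was also found for 3 of 6 other chloride channels (ClC-b, Best1 and Best2), for the degenerin ppk29, for the mechanosensitive channel Tmem63 and for trpl, the channel that carries part of the photoreceptor light response. The models of Rdl (927 nt) and ppk29 (1046 nt) were shorter than the shortest annotated transcripts of these genes, of 3683 and 1690 nt. In neither did a frame from an annotated start reach a stop codon. No model was found for any of 8 voltage-gated potassium and 3 voltage-gated calcium channel genes, or of 3 genes of intracellular calcium release and store entry. The 9 accessory subunits had none either. Of the classes the 7 genes come from, 2 of 3 inward rectifiers had one. So had 1 of 3 calcium- or sodium-activated potassium channels, 1 of 11 K2P channels and 1 of 4 HCN and cyclic nucleotide-gated channels. For sodium channels it was 1 of 3 and for TRP channels 2 of 14. Apart from trpl, every gene with a model in these classes is 1 of the 7, so these counts mostly restate how the 7 were chosen.

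Channel genes with a model had shorter transcripts by median, with wide overlap and no test. The shortest annotated transcript had a median of 2351 nt in the 20 genes with a model (818 to 10469 nt). In the 73 without, the median was 3643 nt (1286 to 15770 nt). The 20, here and in the length classes below, include the 7 genes chosen for having a model. In the 13 others the median was 2647 nt (818 to 4145 nt). By length class, models were found for 7 of 15 channel genes below 2000 nt (39.9% of all coding genes of that class), 7 of 24 from 2000 to 3000 nt (32.4%), 4 of 23 from 3000 to 4000 nt (14.5%) and 2 of 31 above (3.64%). NaCP60E, at 10469 nt, and nAChRalpha7, at 4145 nt, were the only genes over 4000 nt, with models of up to 2170 and of 2095 nt. Genes with at least 1 short annotated transcript were among those without a model. The shortest belonged to Sh (1286 nt), the Shaker potassium channel, and the nicotinic subunits nAChRalpha4 (1509 nt) and nAChRbeta3 (1532 nt). Next came the K2P gene CG10864 (1552 nt) and the glutamate-gated chloride channel GluClalpha (1650 nt). Other genes without a model also had a transcript below 2000 nt. Sh, nAChRalpha4 and GluClalpha have longer annotated transcripts too, of up to 12181, 5645 and 5661 nt, while nAChRbeta3 and CG10864 have no other. At the other extreme, no model was found for RyR (15770 nt) and Itpr (10132 nt), calcium release channels of the endoplasmic reticulum, and the calcium channel Ca-alpha1T (10818 nt). Since read numbers are not in the assembly, a gene without a model may have had reads below the authors' minimum, and its level in heads is not known from it.

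**Figure D4:**
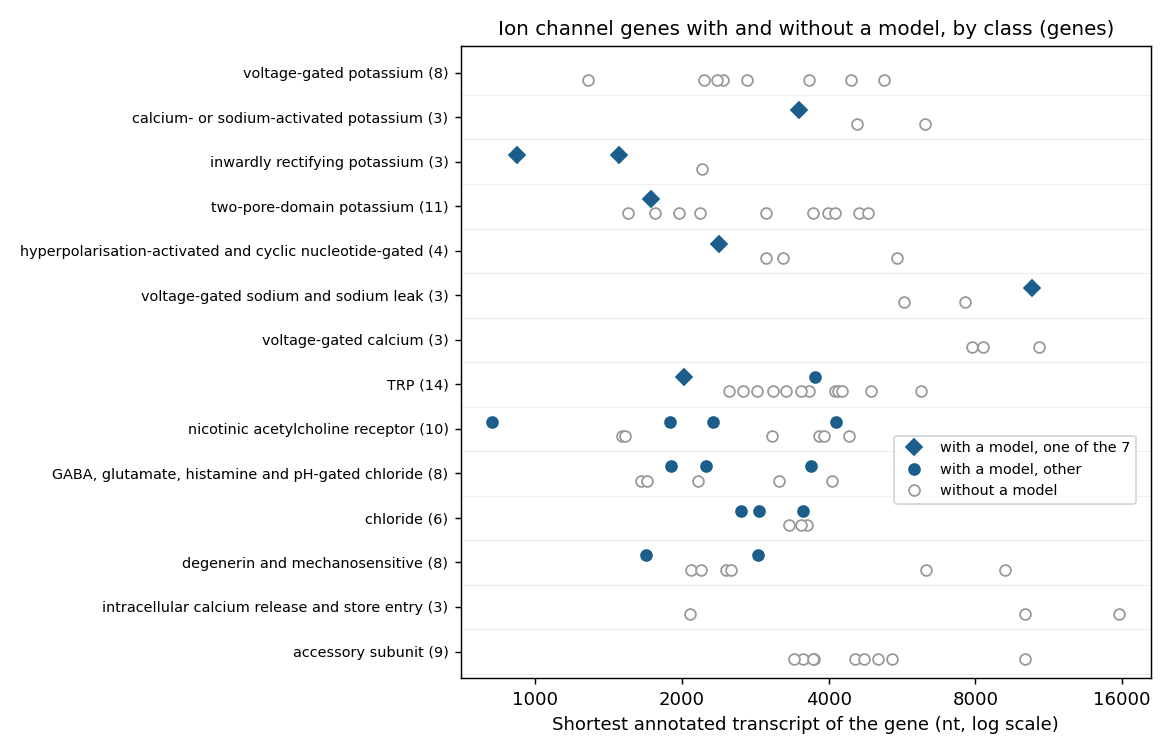
Shortest annotated transcript in nt (log axis) of 93 ion channel genes by class, with the number of genes in brackets. Filled symbols mark the 20 genes with a model (diamonds, the 7 described here), set above open circles for the 73 genes without one. The filled symbols lie from 818 to 10469 nt and the open ones from 1286 to 15770 nt.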

How the data were processed

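FLAM-seq reads of 3 samples of w1118 heads were used as 1 assembly. The authors aligned the merged reads by STARlong and collapsed them into isoforms by FLAIR, correcting splice junctions with short reads, restricting 5′ ends by known promoters and requiring more than a single full-length read. The sources used here do not say whether the 3′ end filter of the study had been run on these models. Per the submitters' processing notes the build was dm6, and featureCounts is named without a role. The deposited columns hold other values than expression: exon start and end coordinates, counted from 1. A further score field whose meaning is not stated was not used.

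Models were joined to genes by identifier and compared with the Ensembl annotation, release 115, which is later than that of the study, and with the RefSeq genome of the same build. All models lay within the reference arms. Splice chains, pairwise differences, reading frames from the first annotated start, and 3′ end sequences were computed in Python 3.11.15, and the measures were tested on simulated models. Over all genes, 673 unspliced models recorded against their gene were given its strand, and 55 models of 34 identifiers not in the annotation were left out where annotation was needed. The 7 genes, the channel list and the markers were chosen with earlier results of these data known. Named were the 7 genes, other listed channel genes with a model, and of those without, the 5 with the shortest and the 3 with the longest shortest transcript. betaTub85D and RpL41 lie outside this rule and were named after their positions were seen. The alternatives tried were other windows for ends and signals, other rules for a matching splice chain, other ways of joining models to genes, and shorter channel lists.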

Additional observations from a re-analysis of the deposited data

Results flagged for a closer look

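A signal outside the identified models was found for 1 channel gene. Among the 175 models without a gene identifier, 1 overlapped an exon of pyx, a TRP channel gene without a model of its own. It was a single-exon model of 600 nt on 3L (218059 to 218658), of which 500 nt lay in annotated pyx exons, and was recorded on the minus strand, which is that of pyx. No such model overlapped an exon of the 7 genes or of any of the other 85 listed channel genes. The strand of unspliced models is uncertain here, since 673 of those with a gene identifier were recorded against the strand of their gene, so the model was not assigned to pyx.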

How the results depend on the processing

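The counts of models, of genes with several models, of 5′ ends and of 3′ ends near an annotated end kept within 1.5 times their value under the alternatives tried. The 3′ ends numbered 8 instead of 7 at windows of 20 and 50 nt. Models with an annotated splice chain numbered 6, and 11 once annotated introns in any combination were accepted. Ends with AATAAA or ATTAAA numbered 2 in the last 50 nt, 1 in the last 30 nt and 0 in the last 20 nt; with every distinct position counted, a choice made after seeing the data, there were 3. The median length was 2097.5 nt over models, 2174 nt over the longest and 2025 nt over the shortest model of each gene. Channel genes with a model numbered 20 of 93, and 14 of 39 with a transcript under 3000 nt. Among pore-forming subunits of voltage-gated, potassium, HCN and TRP channels 8 of 49 had one, and only trpl was not 1 of the 7 genes. These last 2 lists hold fewer genes, and all of these counts include genes chosen for having a model. No paired analysis was possible because the 3 samples were merged into 1 assembly, and for the same reason no sample could be left out. Read support per model is unknown, so no error can be put on any count, and a missing isoform was not detected at this depth rather than absent.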
